A study of Mus musculus with 36 samples.

Results

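The comparison described here sets spared nerve injury (SNI) against sham surgery in the forebrain, with the nucleus accumbens (NAc) and the prefrontal cortex (PFC) pooled. It used 24 of the 36 libraries of the series. These were the 12 sham libraries (6 NAc and 6 PFC) and the 12 SNI libraries (6 NAc and 6 PFC), chosen by their labelled region and surgery, and region entered the model as a covariate. The question was whether both regions share a response to injury that 1 region alone would be too small a sample to show. The libraries of the periaqueductal grey took no part, except in an alternative fit to all 36 libraries, where they entered the error estimate. All mice were adult male C57BL/6 animals without a transgene named in the labels, and every group had an operation, sham or SNI, followed by 2.5 months before the tissue was taken. In SNI, some branches of the sciatic nerve are cut and another is spared, which leaves a lasting hypersensitivity of the paw. Libraries were made from pooled RNA, and the labels say neither which mice stand behind a library nor whether any mouse gave tissue to both regions. The p-values measure how libraries vary, which may be partly technical. They count a mouse in both regions if it gave both, in the pooled model and in the permutation within regions alike, and this was not tested. Some measures took the same order in both regions within a surgery group. Among sham libraries, Capn11 was highest in NAc libraries 5 and 6 and in PFC libraries 17 and 18. Among SNI libraries, it was highest in NAc libraries 9, 10 and 11 and in PFC libraries 21, 22 and 23. Glucocorticoid response and chaperone genes were highest in NAc SNI library 12 and PFC SNI library 24. Immediate-early genes and the signal of GC-rich genes were lowest in NAc SNI library 7 and PFC SNI library 19. Among sham libraries, that GC signal was lowest in NAc library 1 and PFC library 13. Agreement of the 2 regions in such measures need not be independent. The labels do not link these libraries, so no fit joined them, and the pooled errors, intervals and permutation p-values treat all 24 as independent. Permutation p-values within a single region rest only on independent libraries in that region. Regional errors and p-values from limma come from 1 fit to all 24 libraries and do rest on that.

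The NAc and the medial PFC are joined by a dense projection from cortical excitatory neurons to the medium spiny neurons of the accumbens, and both are studied for the mood and motivational side of lasting pain. The gene groups described below include several well-known systems. Immediate-early genes are switched on within minutes of neuronal firing or growth factor signalling, often through CREB, a factor that binds the cyclic AMP response element (CRE). Circadian clock genes form a loop in which CLOCK and BMAL1 drive the Period and Cryptochrome genes, whose products then repress them. Chaperone genes of the endoplasmic reticulum (ER) are induced when unfolded protein gathers there, in part through the ER stress response element (ERSE).

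The 24 libraries held 31.2 to 64.9 M assigned reads, and depth did not separate SNI from sham (two-sided exact permutation test, p = 0.693 in NAc and 0.396 in PFC). The labelled regions differed in their usual markers, though NAc libraries held cortical genes at widely varying levels. Drd2, a dopamine receptor of medium spiny neurons, measured 73.5 to 112 RPKM (reads per kilobase of gene per M assigned reads) in NAc libraries and 0.854 to 6.65 in PFC libraries, and Tbr1, a cortical transcription factor, 24.5 to 30.8 RPKM in PFC libraries and 0.363 to 11.6 in NAc libraries. Some libraries stood apart. NAc SNI library 12 and PFC SNI library 24 had the highest mean log2 level of glucocorticoid response genes, 0.63 and 0.71 above the mean of their region, and also the highest levels of ER and heat shock chaperones. NAc SNI library 7 and PFC SNI library 19 had the lowest level of immediate-early genes, 0.39 and 0.64 below the mean of their region, in each case together with the weakest signal of GC-rich genes in their group. NAc sham library 4 lay 1.88 above its region in fibroblast and meningeal genes, and PFC SNI library 24 lay 0.75 above its region in medium spiny neuron genes. Several results that rest on these libraries, though not all, are given with and without them. NAc SNI library 12 and PFC SNI library 24 were picked by their high glucocorticoid score, and no sham library was left out with them. Leaving them out therefore lowers SNI values of the genes that peak in them, partly by the choice itself.

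No gene passed the pooled test. Of 31554 genes, 15344 averaged at least 0.5 RPKM over the 24 libraries and were tested with limma, a linear model with moderated errors, on log2(RPKM + 0.5), a scale that understates the change of low genes. At a Benjamini-Hochberg adjusted p under 0.05, 0 genes were called, and the lowest adjusted p was 0.163, shared by Hey2, Btg2 and an 81-base small nucleolar RNA gene, Gm26287. An unadjusted p under 0.05 was reached by 921 genes (6.00%), where 767 would be expected if no gene differed, and limma-voom on the recovered reads also called 0 genes and put 881 below that line. Of the 921, 245 (1.60% of the genes tested) were higher in SNI and 676 (4.41%) lower. That split depended on scaling, since 26.6% were higher as reported, 44.1% with median-of-ratios scaling and 41.3% with quantile scaling. Without NAc SNI library 12 and PFC SNI library 24 the count was 431, without NAc SNI library 7 it was 1657, and without PFC SNI library 19 it was 1646.

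The pooled intervals bounded the size of a shared difference, provided that the 24 libraries are independent, which is not known. The median standard error of a gene was 0.0546 on the log2 scale in the pooled model. It was 0.0778 for either region in the region by surgery model, where both regions share 1 residual variance per gene. That gap follows from the number of libraries and is not a finding. The 95% interval of the SNI difference lay within 1.2-fold either way for 12150 genes (79.2%) and within 1.5-fold for 14953 genes (97.5%). Across genes, the NAc and PFC differences had the same sign for 9350 genes (60.9%), with a Pearson correlation of 0.256 and a Spearman correlation of 0.326. Genes are not independent replicates, and the regions may share mice, so these are descriptions. Differences of the SNI effect between the regions called 0 genes in limma (lowest adjusted p = 0.9996). At an unadjusted p under 0.05 there were 132 genes (0.860%), fewer than the 767 expected if no gene differed.

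**Figure D1:**
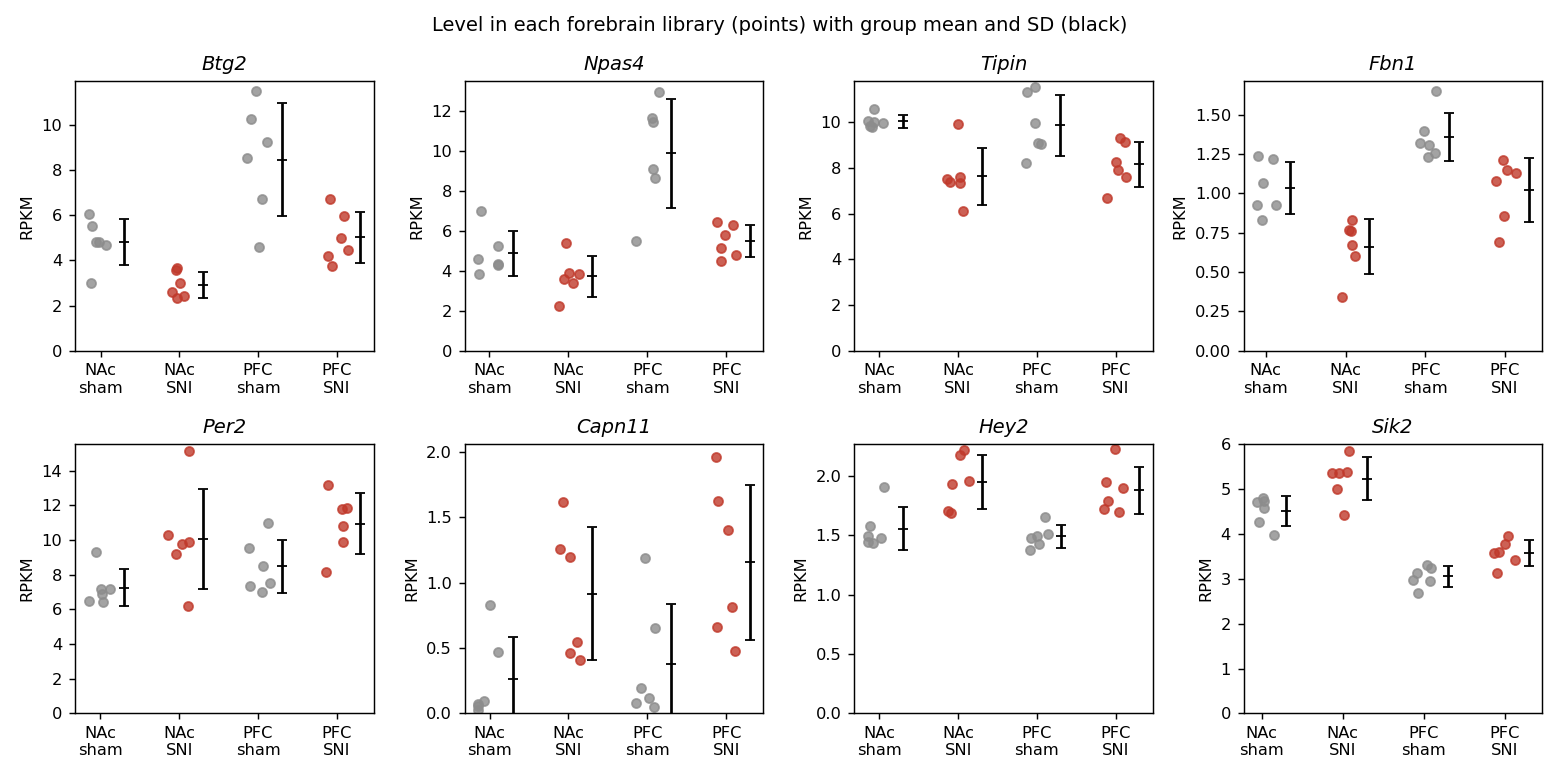
Level of 8 genes in RPKM (vertical axes, linear, from 0) in each of the 6 libraries of 4 groups (grey points for sham, red for SNI), with the group mean and SD in black; SD bars are cut off at 0. For Btg2 and Tipin every SNI library lies below the sham median of its region, and only Fbn1 has no overlap between SNI and sham libraries in either region.

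Btg2, an antiproliferative gene that is also induced by neuronal activity, was the protein-coding gene of smallest p among those lower in SNI. It lies at chr1:134075170-134079120 on the minus strand of mm10. In NAc it measured a lowest, median and highest value of 3.02, 4.81 and 6.04 RPKM in sham libraries and 2.35, 2.79 and 3.65 RPKM in SNI libraries. In PFC the same values were 4.58, 8.88 and 11.5 RPKM in sham libraries and 3.77, 4.73 and 6.71 RPKM in SNI libraries. All 12 SNI libraries lay below the sham median of their region, while the lowest sham library of each region lay inside the SNI range. The pooled log2 difference was -0.65 (standard error 0.12, 95% interval -0.90 to -0.39; limma adjusted p = 0.163). The difference was -0.62 in NAc and -0.67 in PFC, and the interval of the gap between them ran from -0.57 to 0.48. An exact permutation of the surgery labels within each region gave p = 0.000208, and within a single region p = 0.00649 in NAc and 0.0152 in PFC (two-sided, 924 assignments, smallest possible p 0.00216). Btg2 was picked for study with these data known, so the permutation values describe it and are no independent evidence. Without PFC sham library 18, which had the lowest Btg2 of its group, limma called the gene at an adjusted p of 0.0164 with a log2 difference of -0.72. That was the lowest of the 24 fits that left out 1 library each, and the highest limma adjusted p among them was 0.378.

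The promoters of Btg2 and of 2 further immediate-early genes lower in SNI, Npas4 and Dusp1, are shown because the CRE is the element through which activity is known to reach such genes. Each line gives the 250 bases before the RefSeq start on the coding strand of GRCm38.p6, from RefSeq. Capitals mark the full element TGACGTCA, its core TGACG on either strand and, in Dusp1, the E-box CACGTG. The windows are chr1:134079156-134079405 (minus strand) for Btg2, chr19:4989972-4990221 (minus strand) for Npas4 and chr17:26508473-26508722 (minus strand) for Dusp1.
Btg2: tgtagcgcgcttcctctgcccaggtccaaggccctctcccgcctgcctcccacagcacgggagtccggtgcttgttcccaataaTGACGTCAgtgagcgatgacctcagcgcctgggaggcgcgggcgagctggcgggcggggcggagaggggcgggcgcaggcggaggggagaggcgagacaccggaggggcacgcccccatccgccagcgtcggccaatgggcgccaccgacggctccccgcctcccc
Npas4: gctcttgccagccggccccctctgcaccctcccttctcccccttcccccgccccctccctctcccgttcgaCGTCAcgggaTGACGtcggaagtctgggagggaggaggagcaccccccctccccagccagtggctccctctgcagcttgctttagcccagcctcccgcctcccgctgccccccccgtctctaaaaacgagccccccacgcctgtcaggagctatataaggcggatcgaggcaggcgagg
Dusp1: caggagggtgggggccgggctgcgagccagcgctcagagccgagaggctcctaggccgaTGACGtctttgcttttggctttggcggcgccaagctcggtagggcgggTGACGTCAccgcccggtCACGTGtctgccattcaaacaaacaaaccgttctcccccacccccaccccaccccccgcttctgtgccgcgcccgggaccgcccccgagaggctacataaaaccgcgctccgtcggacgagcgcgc
Counted from the RefSeq start, the full element begins at position -166 in Btg2 and -143 in Dusp1, and Npas4 holds 2 cores and no full element. Among the 23 of 31 immediate-early genes with a RefSeq promoter, 2 held the full element and 16 the core. Of the 27025 RefSeq promoters of that length, 1.77% held the full element and 19.8% the core, and of the 10305 of genes tested here 3.08% and 30.4% did. Both strands were searched, and every full element also contains the core. These matches describe letters in a window and are not measurements of binding.

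Immediate-early genes as a list were not uniformly lower. Of 31 measured members, 12 were higher and 19 lower in SNI, and 0 were called. The 6 with an unadjusted p under 0.05 (Btg2, Npas4, Dusp1, Cyr61, Fos and Gadd45b) were all lower. Of all genes tested, 4.41% were lower and 1.60% higher at that line. The list median was -0.05, beside -0.01 over all genes tested, of which 45.1% lay above 0. With 1 library left out, the list median ran from -0.08 to 0.01, the latter without PFC SNI library 19. Without the library of lowest GC signal in each group, 17 immediate-early genes were higher and 14 lower, 4 in each direction had an unadjusted p under 0.05, and the median was 0.04. Npas4, a neuron-specific activity-dependent transcription factor, had a lowest, median and highest value of 3.85, 4.46 and 6.98 RPKM in NAc sham, 2.24, 3.72 and 5.36 RPKM in NAc SNI, 5.47, 10.2 and 12.9 RPKM in PFC sham and 4.48, 5.46 and 6.43 RPKM in PFC SNI libraries. SNI libraries lay below the sham median in 5 of 6 cases in NAc and in 6 of 6 in PFC, with overlap in both regions. Its pooled log2 difference was -0.56 (standard error 0.13; limma adjusted p = 0.339), with -0.36 in NAc and -0.76 in PFC. Dusp1, a phosphatase that shuts off MAP kinases, gave a pooled log2 difference of -0.47 (standard error 0.15; adjusted p = 0.734), and its 12 SNI libraries were all below the sham median of their region. Fos, the archetypal activity gene, averaged 5.27 ± 1.24 RPKM in sham and 3.45 ± 1.47 in SNI libraries of NAc, and 12.6 ± 3.56 and 9.53 ± 3.99 in PFC (SD, n = 6). Its log2 difference was -0.53 (standard error 0.20; adjusted p = 0.765). Arc, a synaptic scaffold induced with Fos, had -0.47 (unadjusted p = 0.075), while Egr1, another early transcription factor, stood at 0.03 and Junb at 0.45 in NAc and -0.50 in PFC. Among the 5 genes of the BTG and TOB family, which share an antiproliferative domain, Btg2 and Tob1 had an unadjusted p under 0.05. Tob1 had a log2 difference of -0.16 (adjusted p = 0.793), and Btg1, Btg3 and Tob2 lay between -0.04 and 0.02.

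Per2, a Period gene of the circadian clock at chr1:91415982-91459324 (minus strand), was higher in SNI in both regions without passing the test. Its lowest, median and highest values were 6.402, 7.01 and 9.32 RPKM in NAc sham libraries and 6.17, 9.82 and 15.1 RPKM in NAc SNI libraries. In PFC they were 6.999, 8.001 and 10.99 RPKM in sham libraries and 8.15, 11.3 and 13.1 RPKM in SNI libraries. SNI libraries exceeded the sham median of their region in 5 of 6 cases in NAc and 6 of 6 in PFC, and the groups overlapped in both. The pooled log2 difference was 0.38 (standard error 0.10, 95% interval 0.17 to 0.60; limma adjusted p = 0.573), with 0.42 in NAc and 0.35 in PFC. The exact permutation p was 0.00221 over both regions, 0.0498 in NAc and 0.0346 in PFC, again as a description of a gene picked with these data known. NAc SNI library 12 and PFC SNI library 24 had the highest Per2 of their groups, and without both the log2 difference was 0.30.

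Of 19 measured clock genes, 15 were higher and 4 lower in SNI, with a median of 0.06, and 0 were called; over all genes tested 45.1% were higher. Unadjusted p-values under 0.05 came from 4 that were higher (Per2, Cry1, Per3 and Tef) and 1 that was lower (Arntl), beside 1.60% and 4.41% of all genes tested. Cry1, a Cryptochrome that represses CLOCK and BMAL1, had a log2 difference of 0.12 (standard error 0.04; adjusted p = 0.765) and Per3 one of 0.15 (standard error 0.07; adjusted p = 0.817). Arntl, which encodes BMAL1, averaged 13.8 ± 0.298 RPKM in PFC sham and 13.02 ± 0.315 in PFC SNI libraries (SD, n = 6), and 10.98 ± 0.617 and 10.6 ± 0.800 in NAc. Its log2 difference of -0.06 was opposite in sign to those of the Period and Cryptochrome genes named. Clock itself stood at -0.01 and Nr1d1, a repressor of Arntl, at 0.01. Without NAc SNI library 12 and PFC SNI library 24 the split stayed at 15 and 4, with 2 higher and 1 lower at an unadjusted p under 0.05. The hour at which tissue was taken is not given in the labels, and its part in these values was not tested.

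Capn11, a calpain protease best known from testis and at chr17:45630204-45659325 (minus strand), had the widest pooled difference upward of any gene tested. It passed the filter of 0.5 RPKM only through its SNI libraries. Its means were 0.259 and 0.381 RPKM in sham and 0.914 and 1.16 RPKM in SNI libraries of NAc and PFC. That rank is therefore no independent evidence of a difference. It was near the floor in most sham libraries, with lowest, median and highest values of 0.0287, 0.0852 and 0.826 RPKM in NAc and 0.0487, 0.158 and 1.19 RPKM in PFC. SNI libraries measured 0.404, 0.871 and 1.62 RPKM in NAc and 0.475, 1.11 and 1.96 RPKM in PFC. All 12 SNI libraries exceeded the sham median of their region, and 2 sham libraries in each region reached into the SNI range. The pooled log2 difference was 0.94 (standard error 0.21, 95% interval 0.50 to 1.38; limma adjusted p = 0.320), with 0.91 in NAc and 0.96 in PFC. On this low gene the Capn11 difference depended on the constant added before the log, at 1.74 with 0.1 RPKM and 0.62 with 1 RPKM, and it was 2.41 with limma-voom on recovered reads. The exact permutation p was 0.000897 over both regions, 0.0195 in NAc and 0.0216 in PFC, for a gene picked with these data known. No other calpain tested shared the pattern at a limma unadjusted p under 0.05. Capn6, Capn8, Capn9, Capn12 and Capn13 were below the expression filter and were not tested. Of 11 members of the calpain list that were tested, calpastatin included, 7 were higher and 4 lower with a median of 0.01, and the ubiquitous Capn1 and Capn2 stood at 0.01 and 0.00. Calpastatin, the calpain inhibitor encoded by Cast, had -0.14 (unadjusted p = 0.081).

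**Figure D2:**
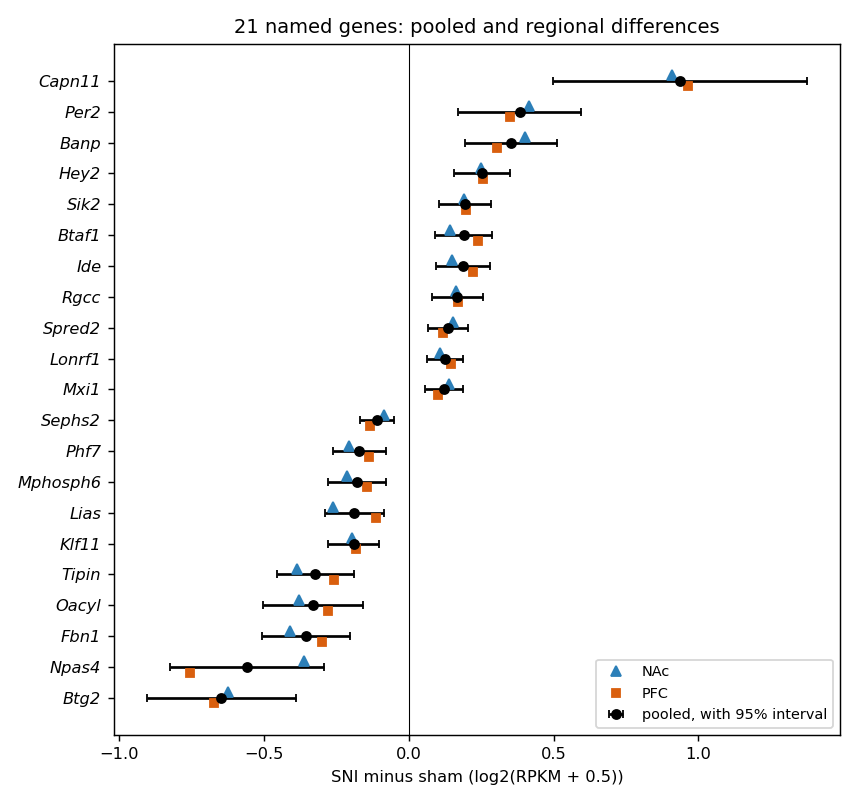
Log2 difference between SNI and sham (horizontal axis, log2(RPKM + 0.5)) of 21 genes, Per2 and the 10 of smallest p in each direction, pooled with its 95% interval (black) and in NAc (blue triangles) and PFC (orange squares). The regional values of every gene share a sign, which the choice of the genes required.

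The other genes of smallest p that were higher in SNI showed smaller differences than Capn11. Hey2, a transcriptional repressor downstream of Notch, had a lowest, median and highest value of 1.44, 1.49 and 1.91 RPKM in NAc sham, 1.69, 1.94 and 2.22 RPKM in NAc SNI, 1.38, 1.49 and 1.66 RPKM in PFC sham and 1.69, 1.84 and 2.23 RPKM in PFC SNI libraries. SNI and sham did not overlap in PFC, and in NAc the overlap came from sham library 4. Its log2 difference was 0.25 (standard error 0.05; limma adjusted p = 0.163) and the same to 2 decimals in either region. Without NAc sham library 4 it was called, at an adjusted p of 0.0339. That was the lowest of the 24 fits that left out 1 library each, and the highest limma adjusted p among them was 0.378. Banp, a nuclear matrix-associated DNA-binding protein, had 0.35 (standard error 0.08; adjusted p = 0.316), with all 12 SNI libraries above the sham median. Sik2, a salt-inducible kinase that holds CREB coactivators in the cytoplasm, measured medians of 4.65 and 5.35 RPKM in NAc sham and SNI libraries and 3.05 and 3.58 RPKM in PFC, a log2 difference of 0.19 (standard error 0.04; adjusted p = 0.316). Spred2, an inhibitor of Ras and MAP kinase signalling, had 0.14, and Mxi1, an antagonist of MYC, 0.12. Ide, the insulin-degrading enzyme, had 0.19, Btaf1, a remodeller of TATA-binding protein, 0.19, Rgcc, a regulator of the cell cycle, 0.17 and Lonrf1, a ubiquitin ligase-like protein, 0.13. In PFC, SNI and sham libraries did not overlap for Ide and Lonrf1. Over all genes tested, non-overlapping groups were found for 20 genes in NAc (0.130%) and 12 in PFC (0.0782%).

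Among genes lower in SNI, Fbn1 was the only one of the 15344 tested whose SNI and sham libraries were apart in the same direction in both regions. Fbn1 encodes fibrillin-1, a microfibril protein of the extracellular matrix. Its lowest, median and highest values were 0.832, 0.994 and 1.24 RPKM in NAc sham, 0.344, 0.713 and 0.830 RPKM in NAc SNI, 1.23, 1.31 and 1.65 RPKM in PFC sham and 0.691, 1.10 and 1.21 RPKM in PFC SNI libraries. The nearest libraries of the 2 groups almost touched in both regions. The log2 difference was -0.35 (standard error 0.07; limma adjusted p = 0.203). An antisense gene, Gm9913, overlaps Fbn1 exons over 2442 bases, and with no strand setting given their reads cannot be told apart. The same limit holds for Sik2, which overlaps Ppp2r1b over 1429 bases, and for Sephs2, which overlaps Gm44729 over 792 bases. Tipin, a protein that stabilises stalled replication forks, was tight in NAc sham libraries (9.81, 9.99 and 10.6 RPKM) and lower in NAc SNI libraries (6.12, 7.44 and 9.94 RPKM). In PFC it had 8.22, 9.54 and 11.5 RPKM in sham and 6.69, 8.09 and 9.32 RPKM in SNI libraries. All 12 SNI libraries were below the sham median, and the log2 difference was -0.32 (standard error 0.06; adjusted p = 0.171). Klf11, a Krüppel-like transcription factor, had a log2 difference of -0.19 (standard error 0.04; adjusted p = 0.320), also with all 12 SNI libraries below the sham median. Lias, which makes lipoic acid in mitochondria, had -0.19, Mphosph6, an RNA exosome cofactor, -0.18, Phf7, a chromatin ubiquitin ligase known from testis, -0.17 and Sephs2, which supplies selenium for selenoproteins, -0.11. Oacyl, a predicted acyltransferase, had -0.33 at medians of 1.22 and 0.879 RPKM in NAc sham and SNI libraries.

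ER chaperones and unfolded protein response genes were mostly on the high side in SNI, and highest in 2 libraries. Of 23 members, 20 were higher and 3 lower with a median of 0.08, 0 were called, and 7 had an unadjusted p under 0.05, all of them higher. Over all genes tested, 45.1% were higher and 1.60% were higher with an unadjusted p under 0.05. The 7 list members were Xbp1, the spliced transcription factor of the response, Herpud1, Pdia4, Sdf2l1, Creld2, Manf and Hspa5, the main ER chaperone BiP. Without NAc SNI library 12 and PFC SNI library 24, 15 were higher and 8 lower, the median was 0.02, and 1 had an unadjusted p under 0.05. Both were also the highest of their groups for this list and no sham library was left out, so part of that fall follows from the choice. Xbp1 measured 17.4, 20.2 and 20.4 RPKM (lowest, median and highest) in NAc sham and 17.9, 21.6 and 32.7 RPKM in NAc SNI libraries, and 20.3, 20.8 and 22.3 RPKM in PFC sham and 20.1, 23.8 and 33.05 RPKM in PFC SNI libraries. The highest value of each SNI group came from those libraries, and in NAc only 3 of 6 SNI libraries exceeded the sham median. Its log2 difference was 0.21 (standard error 0.08; adjusted p = 0.765), and 0.11 without them. Pdia4, a protein disulphide isomerase, had 0.25 (adjusted p = 0.765), and 0.13 without them. Hspa5 averaged 68.6 ± 7.64 RPKM in sham and 82.7 ± 22.2 in SNI libraries of NAc, and 61.0 ± 9.73 and 72.3 ± 17.5 in PFC (SD, n = 6).

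The ERSE sites of 4 of these genes are shown because this element occurs in several promoters of the list. The element was searched on both strands as CCAAT and CCACG with any bases in the fixed spacing between them. Capitals mark CCAAT and CCACG, and each site is printed 5′ to 3′ on the strand that matched, from RefSeq promoters on GRCm38.p6.
Hspa5: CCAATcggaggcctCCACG
Creld2: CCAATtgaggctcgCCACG
Syvn1: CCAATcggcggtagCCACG
Calr: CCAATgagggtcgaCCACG
The sites lie at chr2:34772025-34772043 (plus strand) for Hspa5, chr15:88819520-88819538 (minus) for Creld2, chr19:6046532-6046550 (plus) for Syvn1 and chr8:84847075-84847093 (plus) for Calr. Of 20 list members with a RefSeq promoter, 8 held the element in the 250 bases before the start, against 0.130% of the 27025 RefSeq promoters. The pooled log2 differences of those 8 ran from -0.01 for Canx, a lectin chaperone of the ER, to 0.23 for Hspa5, and only Creld2 and Hspa5 among them had an unadjusted p under 0.05.

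Cytosolic heat shock and glucocorticoid response genes were also highest in these 2 libraries. Over all genes tested, 45.1% were higher, and 1.60% were higher with an unadjusted p under 0.05. Of 21 cytosolic chaperones tested, 20 were higher and 1 lower with a median of 0.08. Chordc1, an HSP90 cochaperone, and Dnajb1, an HSP70 cochaperone, had an unadjusted p under 0.05. Without NAc SNI library 12 and PFC SNI library 24 the split was 17 and 4, the median 0.03 and no member reached that line. Of 22 glucocorticoid response genes, 19 were higher and 3 lower with a median of 0.15, with 0.17 in NAc and 0.11 in PFC. Tsc22d3, the leucine zipper protein GILZ induced by glucocorticoids, Bcl6 and Map3k6 had an unadjusted p under 0.05. Tsc22d3 had 8.67, 9.45 and 10.2 RPKM in NAc sham, 8.10, 11.4 and 16.8 RPKM in NAc SNI, 8.40, 9.10 and 11.2 RPKM in PFC sham and 9.24, 10.9 and 17.5 RPKM in PFC SNI libraries (lowest, median and highest). SNI libraries exceeded the sham median in 5 of 6 cases in NAc and 6 of 6 in PFC. Its log2 difference was 0.27 (standard error 0.10; limma adjusted p = 0.765), and 0.16 without those libraries. Lcn2, a secreted iron-binding protein, averaged 0.294 ± 0.320 RPKM in sham and 1.496 ± 2.91 RPKM in SNI libraries of NAc (SD, n = 6), with a spread above the mean in both. Without the 2 libraries, 20 members of the list were still tested, 15 were higher and 5 lower, and the median was 0.07. The 2 were picked among SNI libraries by the score of this same list, so part of that fall was fixed by the choice. The receptors themselves, Nr3c1 and Nr3c2, stood at -0.01 and -0.04.

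**Figure D3:**
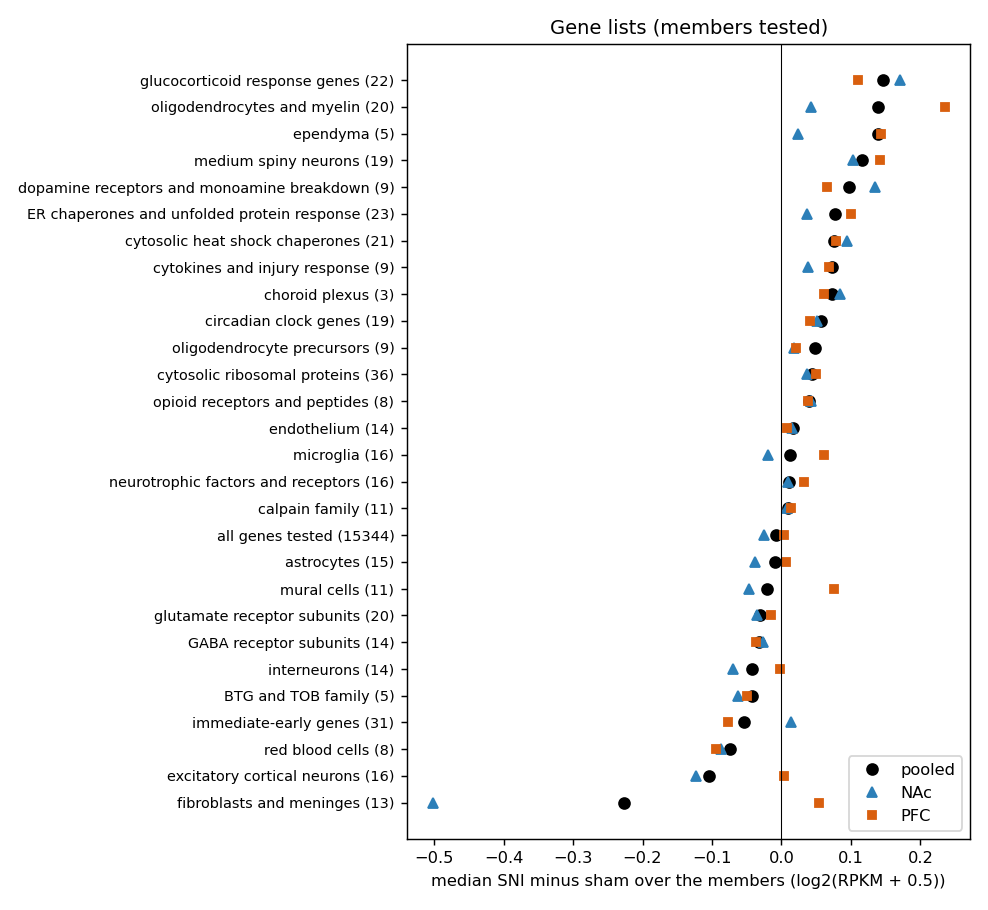
Median log2 difference between SNI and sham (horizontal axis, log2(RPKM + 0.5)) over the tested members of 27 gene lists, with the number of members in brackets, pooled (black), in NAc (blue triangles) and in PFC (orange squares), and over all genes tested. The fibroblast list is the one farthest below 0 in the pooled values, through NAc, and the glucocorticoid list the one farthest above.

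No receptor, transmitter or peptide gene of the lists below was called. The splits stand beside 45.1% of all genes tested that were higher in SNI. Of 14 GABA receptor subunits, 2 were higher and 12 lower with a median of -0.03, and of 20 glutamate receptor subunits 6 were higher and 14 lower with a median of -0.03; none had an unadjusted p under 0.05. In the list of dopamine receptors and monoamine breakdown, 6 of 9 members were higher, with a median of 0.10. Maoa, the enzyme that degrades serotonin and noradrenaline, was lower by a log2 difference of -0.11 (standard error 0.05; adjusted p = 0.831), with SNI libraries below the sham median in 5 of 6 cases in NAc and 4 of 6 in PFC. Opioid peptides and receptors split evenly, 4 higher and 4 lower. Pomc, the precursor of beta-endorphin, had the widest difference of that list, -0.69 (limma unadjusted p = 0.157). It averaged 7.21 ± 16.3 RPKM in sham and 0.615 ± 0.224 in SNI libraries of NAc (SD, n = 6), with a sham spread above the sham mean. The mean log2 level of the opioid list lay 0.62 above the region in NAc sham library 3, and at most 0.09 above in NAc SNI libraries. How far that library set the Pomc difference was not tested. Grm4, a metabotropic glutamate receptor, had the widest of the glutamate list, 0.24 (unadjusted p = 0.136). Both were singled out after their values were seen. The mu receptor gene Oprm1 had 0.08 and the delta receptor gene Oprd1 0.10. Of 16 neurotrophic factors and receptors, 10 were higher with a median of 0.01. Igf1r, the receptor of insulin-like growth factor, had 0.09 (standard error 0.04; adjusted p = 0.824), and Bdnf stood at -0.24 in NAc and 0.05 in PFC. Of 18 cytokine and injury genes, 9 were below the expression filter, among them Atf3, Gal and Sprr1a, which mark injured sensory neurons, and 7 of the other 9 were higher with a median of 0.07 and none called.

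Cell type markers varied widely between libraries, and their part in the differences above was not tested. In bulk tissue, fewer cells of a type and less RNA per cell cannot be told apart. Of all genes tested, 45.1% were higher in SNI. All 13 fibroblast and meningeal genes tested were lower in SNI, with a median of -0.23, which was -0.50 in NAc and 0.05 in PFC. With 1 library left out, the pooled median ran from -0.31 to -0.03, the latter without NAc sham library 4. Summed over the 14 fibroblast genes of the list, levels ran from 17.5 to 138.5 RPKM in NAc sham and from 19.02 to 40.1 RPKM in NAc SNI libraries, and from 16.2 to 44.9 and 19.7 to 47.1 RPKM in PFC. Ogn, a matrix proteoglycan, averaged 3.70 ± 4.89 RPKM in sham and 1.32 ± 0.982 in SNI libraries of NAc (SD, n = 6). Fbn1, itself a matrix gene, had a log2 difference between -0.37 and -0.31 over the fits that left out 1 library each. Of 19 medium spiny neuron genes, 18 were higher with a median of 0.12. With 1 library left out, their median ran from 0.05, without PFC SNI library 24, to 0.16. Their sum ran from 120.4 to 131.7 RPKM in PFC sham and from 121.0 to 210.9 RPKM in PFC SNI libraries. Adora2a, the adenosine receptor of the striatopallidal neurons, averaged 0.656 ± 0.141 RPKM in PFC sham and 1.32 ± 1.48 in PFC SNI libraries, a spread set by that library's 4.31 RPKM. Of 20 oligodendrocyte and myelin genes, 18 were higher with a median of 0.14 (0.04 in NAc and 0.24 in PFC). With 1 library left out, their pooled median ran from 0.05, without PFC SNI library 20, to 0.22. Their sum ran from 347.6 to 1205 RPKM in PFC sham and from 315.4 to 1446 RPKM in PFC SNI libraries. Of 16 excitatory cortical neuron genes, 12 were lower with a median of -0.10. With 1 library left out, their median ran from -0.16 to -0.02, the latter without NAc SNI library 12. Astrocytes, microglia and endothelium had medians of -0.01, 0.01 and 0.02. Ly6c1 and Slc2a1, an endothelial surface protein and the glucose transporter of the blood-brain barrier, had 0.29 and 0.23 (unadjusted p = 0.0245 and 0.0265), and 0.15 and 0.12 without NAc SNI library 12 and PFC SNI library 24. Red blood cell genes were lower in 7 of 8 cases. Alas2, the erythroid enzyme of haem synthesis, had -0.21 (standard error 0.07; adjusted p = 0.727), with 11 of 12 SNI libraries below the sham median.

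**Figure D4:**
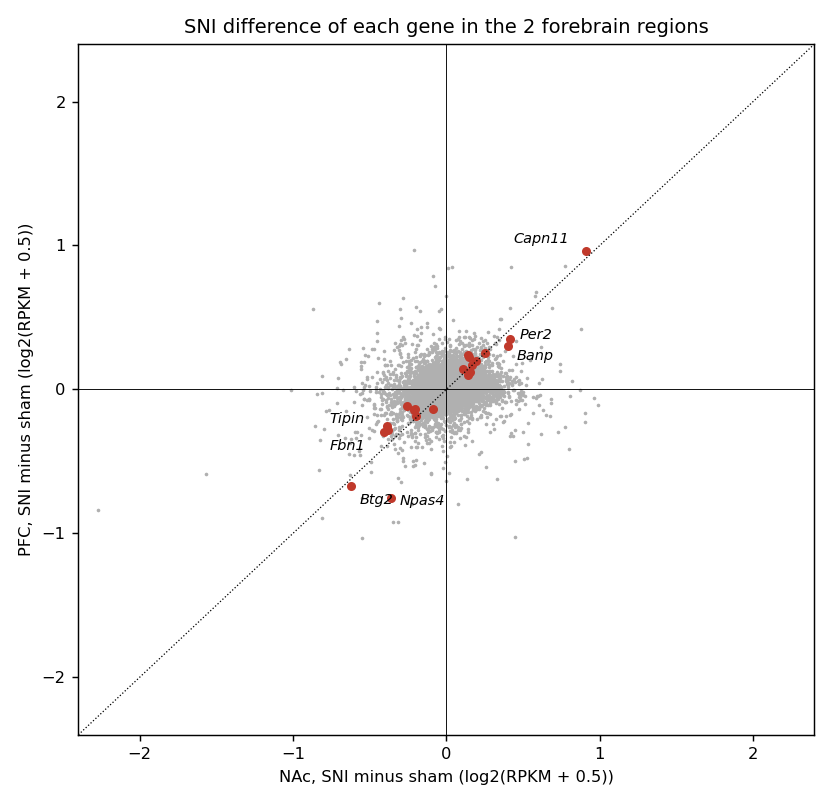
Log2 difference between SNI and sham in NAc (horizontal axis) and in PFC (vertical axis) for each of the 15344 genes tested (grey), with 21 named genes in red and the line of equal values dotted. Most genes lie near the origin, and Btg2 and Capn11 lie near the line far from it.

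Taking each region by itself in the region by surgery model, 680 genes (4.43%) had an unadjusted p under 0.05 in NAc and 252 (1.64%) in PFC. Both counts lay below the 767 expected if no gene differed. The overlap in the same direction was 40 genes (0.261% of those tested), which is 5.88% of the NAc list and 15.9% of the PFC list, 16 higher and 24 lower, and 1 gene had opposite directions. Beside the genes already named, the 40 include Mfsd2a, the lipid transporter of the blood-brain barrier, at 0.21, Ctsk, a lysosomal collagenase, at -0.27, Leo1, a subunit of the PAF1 elongation complex, at -0.13, and Mylip, a ubiquitin ligase of the lipoprotein receptor, at -0.11; these 4 were singled out after their values were seen. Asking for a pooled unadjusted p under 0.05 and a difference of at least 1.2-fold in both regions left 63 genes (0.411%), 14 higher (0.0912%) and 49 lower (0.319%). Of these, 42 were small RNA genes of under 200 bases, a class that makes up 3.94% of the genes tested and that poly-A selection does not target, and 35 of the 42 were lower. The 15 protein-coding ones include Btg2, Fbn1, Npas4, Oacyl, Dusp1 and Fos on the low side and Capn11, Banp, Per2 and Sdf2l1 on the high side. Also among them were Fabp7, a glial fatty acid carrier, at -0.32, and the pituitary hormone genes Gh and Prl, at -1.56 (standard error 0.68) and -1.08 (standard error 0.49). The Gh difference was -2.27 in NAc and -0.84 in PFC, and that of Prl was -1.57 and -0.59. How far single libraries set the Gh and Prl values was not tested.

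The few genes with the strongest hint of a difference between the regions were each far from the adjusted threshold (limma adjusted p = 0.9996 for all 8). Ier2, an immediate-early gene, differed by 0.26 in NAc and -0.54 in PFC, and the SNI libraries lay above the sham median in 5 of 6 cases in NAc and in 0 of 6 in PFC. Hist1h4i, a replication-linked histone gene, had 0.36 in NAc and -0.18 in PFC, with all 6 NAc SNI libraries above and all 6 PFC SNI libraries below the sham median. Dusp8, a MAP kinase phosphatase, had 0.11 and -0.04, and Mpc1, a subunit of the mitochondrial pyruvate carrier, 0.05 and -0.14. In the other direction, Gstm4, a glutathione transferase, had -0.19 in NAc and 0.05 in PFC, and Fbxo5, an inhibitor of the anaphase-promoting complex, -0.16 and 0.13. Timm21, a mitochondrial import factor, had -0.12 and 0.15, and Ska3, a kinetochore protein, -0.13 and 0.05.

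At the same adjusted threshold, the alternative that called most genes gave each library a weight by its fit. With these array weights, which ranged from 0.32 for PFC SNI library 19 to 2.10 for NAc sham library 3, limma called 13 genes (0.0847%). These were Hey2, Banp, Sik2, Spred2, Per2 and Capn11 on the high side and Btg2, Tipin, Oacyl, Lias, Mphosph6, Gm11084 and Gm26287 on the low side. Adjusted p-values were 0.0154 for Hey2, 0.0388 for Capn11 and 0.0479 for Btg2 and Per2. The log2 differences stayed close to those reported, -0.62 for Btg2, 0.42 for Per2 and 1.08 for Capn11. Leaving out the library of lowest GC signal in each group called 3 genes (0.0195%), Tipin, Sik2 and Spred2, and quantile scaling called Hey2 alone (0.00652%). Without NAc SNI library 12 and PFC SNI library 24, 0 genes were called, at a lowest adjusted p of 0.415.

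**Figure D5:**
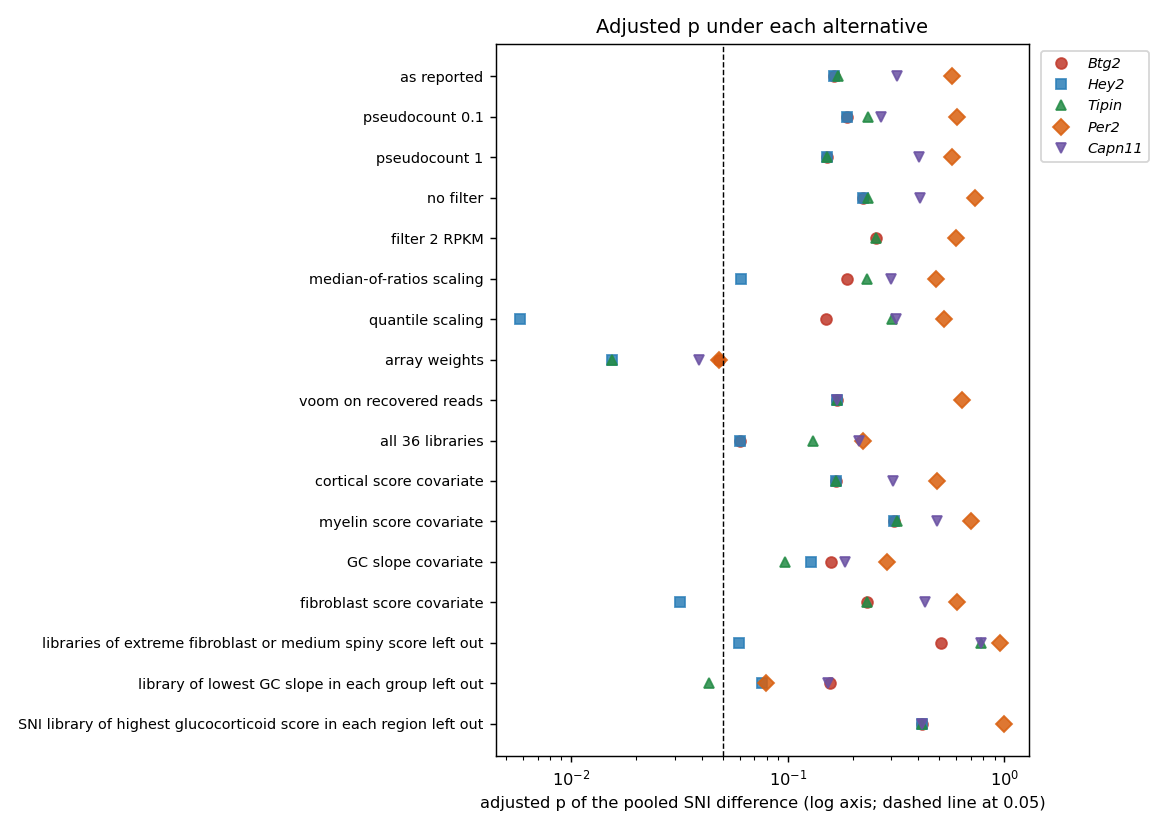
Adjusted p of the pooled SNI difference (horizontal log axis, dashed line at 0.05) for Btg2, Hey2, Tipin, Per2 and Capn11 as reported and under 16 other settings that keep both regions. Among these settings is the fit to all 36 libraries, which adds the periaqueductal grey to the error estimate. All 5 lie left of the line with array weights, and Hey2 alone does with quantile scaling and with the fibroblast score as a covariate; Tipin alone does without the library of lowest GC signal in each group.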

How the data were processed

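The authors deposited RPKM values for 31554 genes, with gene lengths, from 36 poly-A selected libraries; the submitters' processing notes name TopHat2, HTSeq and mm10 (settings and strand: not given in the sources used here). Multiplied by length, all values gave whole reads within 0.001, from which depth was read (31.2 to 64.9 M in the 24 libraries used). No 2 of 60 library pairs within groups agreed within sampling noise (lowest chi-square per degree of freedom 7.68). RPKM values are not counts, so limma 3.58.1 (R 4.3.3) with a mean-variance trend was fitted to log2(RPKM + 0.5) as region plus surgery, and as region by surgery for differences, over the 15344 genes whose mean reached 0.5 RPKM, with Benjamini-Hochberg adjustment of two-sided p-values. A level score of a list is the mean log2 value of its members minus the region's mean. GC signal is the slope of a library's deviation on gene GC content, from GENCODE M21. Array weights let limma weigh libraries. The scripts were tested on simulated data. Named genes were Btg2, Per2 and Capn11, the 10 of smallest p in each direction with the same sign in both regions (predicted genes, pseudogenes and small RNAs passed over), up to 3 per gene list and 4 per direction for the difference between regions; other list members are named as examples. Members and lists were chosen with earlier results of these data known. Leaving out NAc SNI 12 and PFC SNI 24, leaving out the lowest GC signal of each group, leaving out NAc sham 4 and PFC SNI 24, and the fibroblast score as a covariate were added after seeing the data.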

Additional observations from a re-analysis of the deposited data

Results flagged for a closer look

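In 4 of the 84 groups examined (21 named genes in 4 groups of 6 libraries), 1 library lay far from the other 5 relative to the range of the group; chance alone gives about 1 in 20 groups. All were NAc sham libraries. Per2 measured 9.32 RPKM in NAc sham library 5, with the next library at 7.17 RPKM. Hey2 measured 1.91 RPKM in NAc sham library 4, with the next at 1.58 RPKM. Lonrf1 measured 7.02 RPKM in NAc sham library 2, with the nearest at 7.59 RPKM. Tipin measured 10.6 RPKM in NAc sham library 1, with the next at 10.1 RPKM.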

How the results depend on the processing

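No paired analysis was possible because the groups share no replicate numbers in the labels. Among the genes named by the rule for the pooled comparison, none changed the sign of its difference under the settings run; the 8 genes named for a difference between the regions were not part of that check, and their gap between the regions kept its sign. The count of called genes, 0 as reported, was 13 with array weights, 3 without the library of lowest GC signal in each group, and 1 each with quantile scaling and with the fibroblast score as a covariate; it ranged from 0 to 1 over the fits that left out 1 library. The looser rule of an unadjusted p under 0.05 and 1.2-fold in both regions gave 63. The count at an unadjusted p under 0.05, 921 as reported, was 1668 without the expression filter (30694 genes tested). It was 2039 with array weights and 1125 with all 36 libraries. It was 2256 without the library of lowest GC signal in each group and 431 without NAc SNI 12 and PFC SNI 24. It was 660 in NAc alone and 220 in PFC alone, and 615 to 1657 over the fits that left out 1 library. Btg2 was called with array weights (-0.62) and ranged from -0.72 to -0.60 when 1 library was left out; Per2 (0.42 with array weights, called) from 0.32 to 0.44; Capn11 (1.08 with array weights, called) from 0.87 to 1.04. Why these settings moved the calls was not tested. Of the fits that left out 1 library, those without PFC sham 18 (Btg2) and NAc sham 4 (Hey2) called a gene. Differences between the regions called 0 genes under all alternatives run for them. At 0.5 RPKM a gene of 1 kb rests on few reads, since 1 read is worth 0.0154 to 0.0320 RPKM.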
